A study of Mus musculus with 16 samples.

Results

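The genes examined here encode 9 structural proteins of central myelin and were chosen by name: Mbp, Mog, Mag, Mobp, Cnp, Opalin, Cldn11, Mal and Ermn. They are 9 of the 55335 Ensembl genes in the count files, and all 9 matched a mouse identifier by symbol. The material was poly-A RNA of oligodendrocyte precursor cells (OPCs) that had been derived from mouse neural stem cells, on a mixed C57BL6J/129svEmx background, at day 4 of monolayer culture. The 4 groups were WT (RXRg+/+) untreated, WT with the thyroid hormone triiodothyronine (T3) for 24 h, RXRgKO (RXRg-/-, lacking retinoid X receptor gamma) untreated, and RXRgKO with T3, with 4 libraries each. Neither the disrupted part of Rxrg nor the origin of the 4 libraries of a group in 1 or several cultures is stated, and the p-values below therefore reflect spread among libraries that may be technical. The comparisons ask how far the myelin protein genes differ with genotype, how they respond to T3, and how early and late members are ordered.

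Oligodendrocytes wrap axons in stacked membrane, and the proteins of this sheath are made in sequence as precursors exit the cell cycle and mature. Myelin basic protein glues the cytoplasmic faces of the membrane together, CNP keeps cytoplasmic channels open, MAG faces the axon, and MOG and opalin appear at late stages. T3 is a classical trigger of this step: its nuclear receptors bind DNA as heterodimers with retinoid X receptors. Cnp, Mbp and Mag are treated below as early genes and Mog, Mobp, Opalin and Ermn as late genes, while Cldn11 and Mal were put in neither class.

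Promoter sequence was taken from RefSeq on GRCm38.p6, the patch level of mm10, for 8 of the 9 genes. The 250 bases before each transcription start were searched on either strand for 3 motifs: AGGTCA, the core hexamer of nuclear receptors, CTGGNAC, the core recognised by the myelin factor Myrf, and ACAAAG, a Sox factor core. No overlap between the motifs was found in the stretches shown. AGGTCA was found before none of the 10 annotated starts of these 8 genes, against 14.0% of 32851 mouse promoters of the same length. CTGGNAC was found before starts of Mag, Cnp and Mog (16.1% of all promoters) and ACAAAG before starts of Mag, Cnp, Opalin and Mobp (16.5%). A match describes letters only, and the counts give no binding data. The first 2 sequences belong to the genes with the largest T3 changes and the third to the gene with the largest genotype gap; capitals mark matches to any of the 3 motifs, and all are written 5′ to 3′ on the gene's strand.
Opalin, chr19:41077114-41077363, minus strand, all 250 bases before the start, with ACAAAG from base -139: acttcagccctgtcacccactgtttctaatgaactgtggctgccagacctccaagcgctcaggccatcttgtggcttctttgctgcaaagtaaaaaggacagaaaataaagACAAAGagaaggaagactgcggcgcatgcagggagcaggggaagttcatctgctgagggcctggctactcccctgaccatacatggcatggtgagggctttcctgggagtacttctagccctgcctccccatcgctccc
Mog, chr17:37023399-37023648, minus strand, all 250 bases before the start, with CTGGNAC on the opposite strand from base -83: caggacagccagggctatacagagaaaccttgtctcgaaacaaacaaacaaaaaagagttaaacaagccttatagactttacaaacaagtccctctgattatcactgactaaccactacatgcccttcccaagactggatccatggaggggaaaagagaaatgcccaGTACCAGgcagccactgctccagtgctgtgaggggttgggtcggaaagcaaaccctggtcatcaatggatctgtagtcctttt
Mobp, chr9:120149492-120149641, plus strand, the first 150 of the 250 bases: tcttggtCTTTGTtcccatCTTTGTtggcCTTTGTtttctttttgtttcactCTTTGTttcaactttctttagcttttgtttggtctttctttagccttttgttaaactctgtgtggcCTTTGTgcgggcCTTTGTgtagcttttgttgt
The Mobp stretch holds ACAAAG 6 times, each on the opposite strand (read here as CTTTGT), the first from base -243 and the last from base -120.

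Libraries held 18262279 to 42588442 counts in genes, and 19764 genes passed the count filter, among them all 9 members. Rxrg itself went against the labels: without T3 it stood at 1.51 ± 0.282 CPM (read counts scaled to a common, TMM-normalised library size; SD, n = 4) under the WT label and at 4.25 ± 0.546 CPM under the RXRgKO label (log2 fold change 1.48, SE 0.22, adjusted p = 2e-04 in edgeR). Genotype directions are therefore given as between labels throughout. Libraries of a group also fell into sets that were more alike than the rest. WT-labelled replicate 1 stood alone in either treatment, and the RXRgKO-labelled libraries split into those with Xist, the RNA of the inactive X chromosome (592 to 700 CPM here), and those lacking it (1.45 to 4.14 CPM: untreated replicates 1 and 3, T3 replicates 1 and 2). WT-labelled replicates 2 to 4 had 1210 to 1380 CPM of Xist untreated and 256 to 336 CPM with T3, so treatments there also differ in this X-linked RNA. The Xist values alone were scaled to the counts in genes without TMM. The cultures expressed OPC and oligodendrocyte genes together with astrocyte and neuron genes. The summed level of 6 OPC markers, Pdgfra and Cspg4 among them, was 1572 to 3588 CPM over the 16 libraries, and that of 6 astrocyte markers, Gfap and Aqp4 among them, was 2759 to 15022 CPM. These levels also differed between sets. With T3 under the RXRgKO label, Pdgfra was at 175 and 175 CPM lacking Xist and at 591 and 614 CPM with it. Gfap was at 4010 and 3458 against 1756 and 1944 CPM, while the astrocyte marker Aldh1l1 went the other way (326 and 291 against 335 and 363 CPM). In WT-labelled replicate 1, Gfap was at 4728 CPM untreated, against 819 to 1001 CPM in replicates 2 to 4. With T3 it was at 11207 against 2455 to 2834 CPM. Schwann cells use several of the same myelin genes, and 6 Schwann cell markers summed to 3.63 to 8.34 CPM.

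Without T3, all 9 myelin protein genes were lower under the RXRgKO label than under the WT label. In that comparison 5.16% of all genes tested were called lower, at a Benjamini-Hochberg adjusted p under 0.05 in edgeR's quasi-likelihood test. In 9 of 9 genes, every RXRgKO-labelled library lay below every WT-labelled one, as it did for 9.36% of all genes. The median log2 fold change of the 9 was -3.67, against 0.00 for all genes tested. In bulk RNA, fewer oligodendrocytes and less myelin RNA in each one cannot be told apart.

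**Figure D1:**
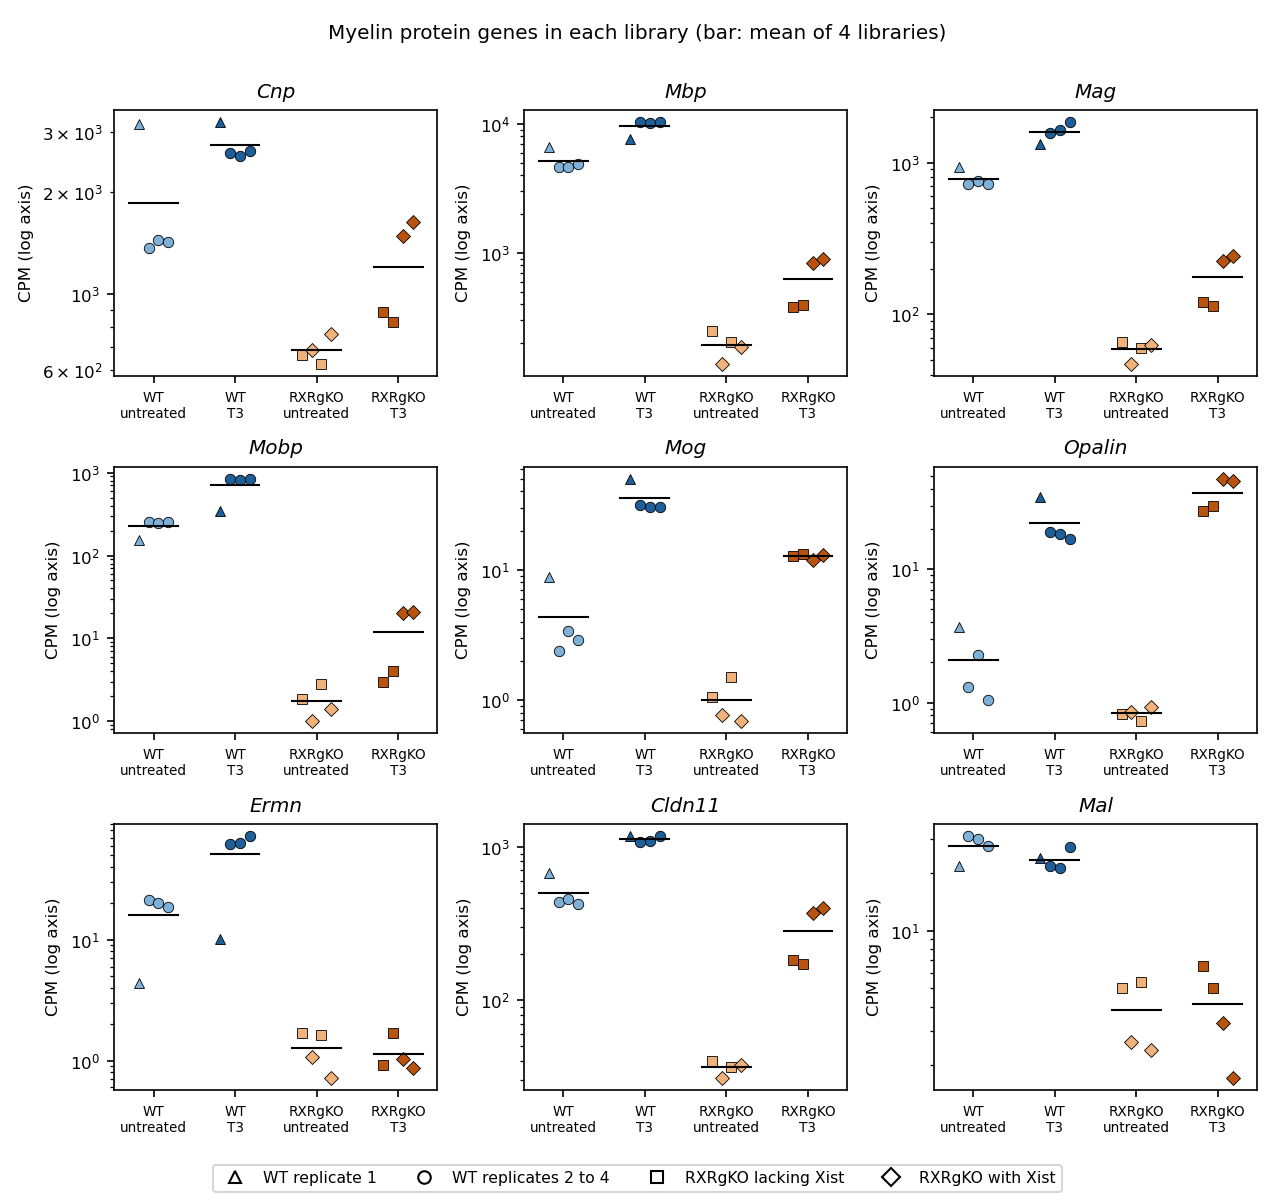
Normalised level (CPM, log axis) of each of the 9 genes in the 16 libraries, by group; each point is a library, its shape gives the library set, and the bar is the mean of 4. Untreated RXRgKO-labelled libraries lie below every untreated WT-labelled library in all 9 panels, with Mobp at 1.00 to 2.81 against 155 to 252 CPM.

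Mobp, a small basic protein of compact myelin (chr9:120149707-120181484), had the largest gap. Its untreated WT-labelled libraries read 155, 252, 248 and 252 CPM, and the untreated RXRgKO-labelled ones 1.85, 1.00, 2.81 and 1.40 CPM. The difference was -7.01 on the log2 scale (SE 0.65, adjusted p = 2.2e-06), a 129-fold lower level, and it rested on 26 to 66 reads per RXRgKO-labelled library. Mbp, which compacts the sheath, was at 6608, 4603, 4630 and 4853 CPM under the WT label and at 248, 137, 204 and 185 CPM under the RXRgKO label. Its gap was -4.74 (SE 0.32, adjusted p = 1e-07), or 26.8-fold. These values put Mbp among the abundant RNAs of the WT-labelled cultures and at a moderate level in the others, with no overlap.

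Cldn11, the claudin of the tight junctions between myelin lamellae (chr3:31149920-31164324), was at 423 to 670 CPM against 31.0 to 40.2 CPM, a difference of -3.76 (SE 0.27, adjusted p = 1.8e-07). Mag, an adhesion protein of the membrane facing the axon (chr7:30899176-30914873), was at 718 to 933 CPM against 46.8 to 65.9 CPM, a difference of -3.73 (SE 0.25, adjusted p = 1e-07). Both were thus more than 10-fold lower, and neither had overlapping groups. Ermn, which encodes the actin-binding protein ermin (chr2:58045113-58052864), read 4.39, 21.3, 20 and 18.7 CPM under the WT label, where replicate 1 was the low one. Under the RXRgKO label it read 1.68, 1.08, 1.62 and 0.716 CPM, and the difference was -3.67 (SE 0.57, adjusted p = 3.7e-04). Mal, a proteolipid of membrane trafficking (chr2:127633226-127656695), was at 21.7 to 31.1 against 2.39 to 5.41 CPM, a difference of -2.84 (SE 0.34, adjusted p = 2.6e-05).

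The 3 smallest gaps were those of Mog, Cnp and Opalin. Mog (chr17:37010743-37023398), an immunoglobulin-like protein of the outermost membrane, read 8.82, 2.37, 3.37 and 2.87 CPM against 1.06, 0.770, 1.49 and 0.687 CPM, a difference of -2.14 (SE 0.38, adjusted p = 9.9e-04). Cnp (chr11:100574904-100591729) read 3149, 1365, 1446 and 1422 CPM against 664, 685, 623 and 764 CPM, a difference of -1.43 (SE 0.27, adjusted p = 0.00192). For either gene WT-labelled replicate 1 was the highest library, and the remaining WT-labelled libraries still lay above all RXRgKO-labelled ones. Opalin (chr19:41061710-41077113) read 3.70, 1.31, 2.27 and 1.04 CPM against 0.822, 0.847, 0.724 and 0.925 CPM, a difference of -1.32 (SE 0.39, adjusted p = 0.0337). Its groups nearly touch, and the Opalin call was lost in 10 of 25 alternatives, with adjusted p from 0.00342 to 0.183 over all of them. Without untreated WT-labelled replicate 1 the Opalin difference was -0.87 (adjusted p = 0.183), and with the replicate block -1.25 (adjusted p = 0.0502).

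With T3 in both arms, 8 of the 9 genes were lower under the RXRgKO label (6.80% of all genes were called lower), with Opalin the exception. The 8 had no overlap between groups, as 8.91% of all genes had in this direction. Mobp was again farthest apart, at 348, 833, 812 and 836 CPM under the WT label and 2.98, 4.00, 20.1 and 20.7 CPM under the RXRgKO label, a difference of -5.87 (SE 0.60, adjusted p = 5.4e-06). The 2 high RXRgKO-labelled libraries were those with Xist, and the difference was -7.75 when only libraries lacking Xist stood for the label. Ermn followed, at 10.2, 61.6, 62.6 and 71.9 CPM against 0.929, 1.68, 1.04 and 0.862 CPM, a difference of -5.55 (SE 0.61, adjusted p = 1.1e-05). Ermn thus stayed near 1 CPM in every T3-treated RXRgKO-labelled library, of either set.

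Mbp was at 7593, 10320, 10130 and 10342 CPM with T3 under the WT label and at 383, 393, 840 and 891 CPM under the RXRgKO label, a difference of -3.94 (SE 0.30, adjusted p = 4.1e-07). The differences of the remaining genes were -3.19 (SE 0.24, adjusted p = 3.6e-07) for Mag, -2.52 (SE 0.33, adjusted p = 6.5e-05) for Mal, -2 (SE 0.25, adjusted p = 4.1e-05) for Cldn11, -1.49 (SE 0.32, adjusted p = 0.00362) for Mog and -1.19 (SE 0.27, adjusted p = 0.00607) for Cnp. The Cnp call was lost without the 4 RXRgKO-labelled libraries lacking Xist (-0.86, adjusted p = 0.0667; range over alternatives 6.21e-05 to 0.0667). Opalin read 34.9, 19.0, 18.4 and 16.8 CPM under the WT label and 27.3, 30.0, 47.5 and 45.8 CPM under the RXRgKO label. The groups overlap through WT-labelled replicate 1 alone, and the value was 0.76 (SE 0.30, adjusted p = 0.107). Without T3-treated WT-labelled replicate 1 the Opalin value was 1.07 (adjusted p = 0.0215), and over all alternatives adjusted p ran from 0.00311 to 0.565.

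**Figure D2:**
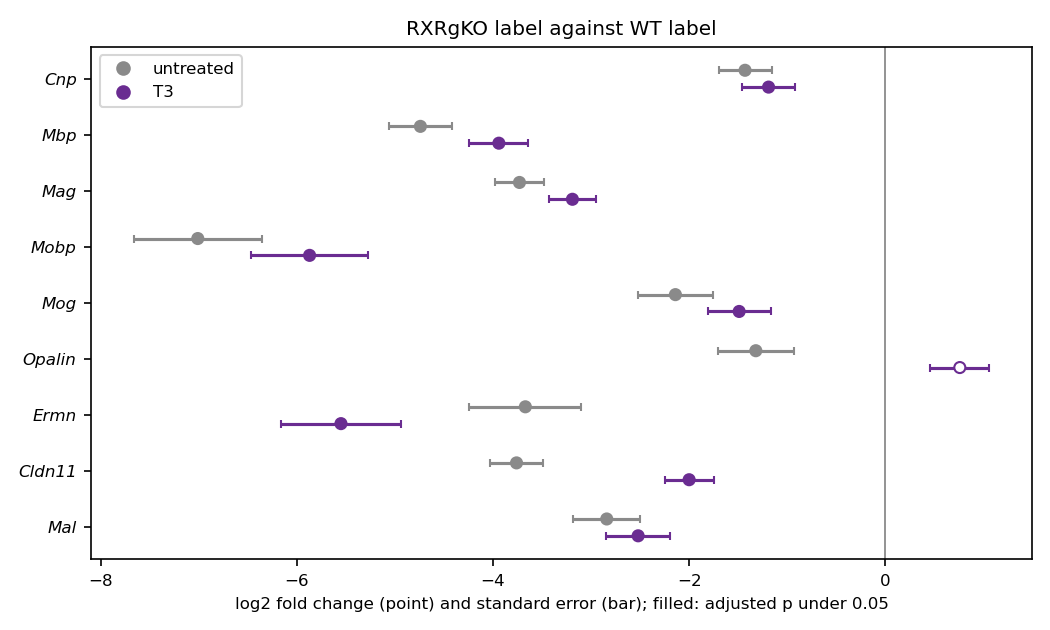
log2 fold change of the RXRgKO label against the WT label for each gene, untreated (grey) and with T3 (purple); bars are standard errors and filled points passed the test. Every gene lies left of 0 in either arm except Opalin with T3, at 0.76, and Mobp lies farthest left, at -7.01 and -5.87.

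In the WT-labelled libraries, 5 of the 9 genes rose with T3, beside 4.96% of all genes called higher. For 6 of them every T3 library lay above every untreated one, as for 7.69% of all genes. The median of the 9 was 1.18 against -0.03 for all genes tested. The late genes Opalin and Mog led. Opalin read 3.70, 1.31, 2.27 and 1.04 CPM before and 34.9, 19.0, 18.4 and 16.8 CPM after T3, a log2 fold change of 3.41 (SE 0.34, adjusted p = 1.1e-05). Mog read 8.82, 2.37, 3.37 and 2.87 CPM before and 49.8, 31.6, 30.2 and 30.5 CPM after T3, a change of 3.02 (SE 0.34, adjusted p = 3.3e-05). Both genes were low in the untreated libraries, replicate 1 was the highest library in either group, and the groups did not overlap. Cldn11 went from 423 to 670 CPM up to 1073 to 1169 CPM (1.18, SE 0.25, adjusted p = 0.00574). Mag doubled, from 782 ± 102 to 1594 ± 212 CPM (SD, n = 4; 1.03, SE 0.23, adjusted p = 0.00846).

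Ermn was called in the WT-labelled libraries (1.68, SE 0.49, adjusted p = 0.0442), although its groups overlap because replicate 1 was low with T3 too, at 10.2 CPM against 61.6 to 71.9 CPM. The Ermn call was lost in 15 of 27 alternatives (adjusted p from 2.29e-11 to 0.185), among them each omission of another WT-labelled library of replicates 2 to 4 (0.072 to 0.127). Mobp (1.64, SE 0.50, adjusted p = 0.0514) and Mbp (0.89, SE 0.27, adjusted p = 0.0542) missed the threshold narrowly, while every T3 library of either gene lay above every untreated one. Mobp was called in 14 of 27 alternatives (adjusted p from 4.52e-06 to 0.217) and Mbp in 15 of 27 (0.00239 to 0.161). Cnp had a value of 0.57 (SE 0.27, adjusted p = 0.224). Replicate 1 had 3149 CPM untreated and 3198 CPM with T3, whereas replicates 2 to 4 had 1365 to 1446 CPM and 2550 to 2632 CPM. Without untreated replicate 1, Cnp was at 0.97 (adjusted p = 0.00986; range over alternatives 0.00236 to 0.491). Mal stood apart, with 27.6 ± 4.16 CPM untreated and 23.4 ± 2.76 CPM with T3 (SD, n = 4; -0.24, SE 0.31, adjusted p = 0.706). The values of the 4 late genes (1.64 to 3.41) all lay above those of the 3 early genes (0.57 to 1.03). This order was not tested, and the standard errors of Mobp (0.50) and Ermn (0.49) are large beside their distance from Mag. With replicate numbers taken as pairs in the WT-labelled libraries alone, 8 of the 9 genes were called higher, Mal being the one left out, but 16% of all genes were called higher in that fit. The labels do not state such pairs. When the library set was a term, 8 were called as well, beside 20.4% of all genes.

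Under the RXRgKO label, 6 of the 9 rose with T3 (2.01% of all genes were called higher), and 7 had every T3 library above every untreated one (7.87% of all genes). Their median was 1.70, against 0.00 for all genes tested. Opalin went from 0.822, 0.847, 0.724 and 0.925 CPM to 27.3, 30.0, 47.5 and 45.8 CPM, a 44.9-fold change (5.49, SE 0.38, adjusted p = 4.5e-07). Mog reached 12.7, 13.2, 11.9 and 13.1 CPM, a narrow range across sets, from 0.687 to 1.49 CPM (3.68, SE 0.38, adjusted p = 2.3e-05). Cldn11 went from 31.0 to 40.2 CPM up to 183, 171, 370 and 397 CPM (2.94, SE 0.26, adjusted p = 6.2e-06). In each of these 3 genes the groups were far apart in either library set.

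Mobp (2.78, SE 0.56, adjusted p = 0.0106), Mbp (1.70, SE 0.28, adjusted p = 0.00217) and Mag (1.57, SE 0.23, adjusted p = 8e-04) also rose, more so in the libraries with Xist, a difference between sets that was not tested. The sets differ in OPC and astrocyte markers as well as in Xist, and the part of either was not tested. Mobp lost its call in 4 of 26 alternatives. Mobp went from a mean of 1.20 to 20.4 CPM in the set with Xist and from 2.33 to 3.49 CPM in the set lacking it. Mbp went from 161 to 865 CPM with Xist and from 226 to 388 CPM lacking it, and Mag from 55.0 to 233 and from 62.9 to 117 CPM. Without the 4 libraries with Xist, Mobp was at 0.62 (adjusted p = 0.839; range over alternatives 1.15e-04 to 0.839), Mbp at 0.81 (adjusted p = 0.254; 1.28e-08 to 0.254) and Mag at 0.92 (adjusted p = 0.0568; 4.21e-10 to 0.0568). In that setting 3 members, Opalin, Mog and Cldn11, were called, and calls fell over all genes too, to 0.532% called higher. Cnp (0.82, SE 0.27, adjusted p = 0.128) had no overlap between treatments but was not called. Mal had 3.86 ± 1.58 CPM untreated and 4.14 ± 2.09 CPM with T3 (0.08, SE 0.33, adjusted p = 0.929), and Ermn had 1.27 ± 0.459 and 1.13 ± 0.378 CPM (SD, n = 4; -0.20, SE 0.62, adjusted p = 0.902). Early genes had values of 0.82 to 1.70 here and late genes of -0.20 to 5.49, so Ermn broke the order seen under the WT label. The Ermn value rested on 24 to 49 reads per library. In the set lacking Xist, Mobp (0.58, difference in mean log2 CPM) also lay below the early genes Mbp (0.79) and Mag (0.89), though above Cnp (0.42).

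**Figure D3:**
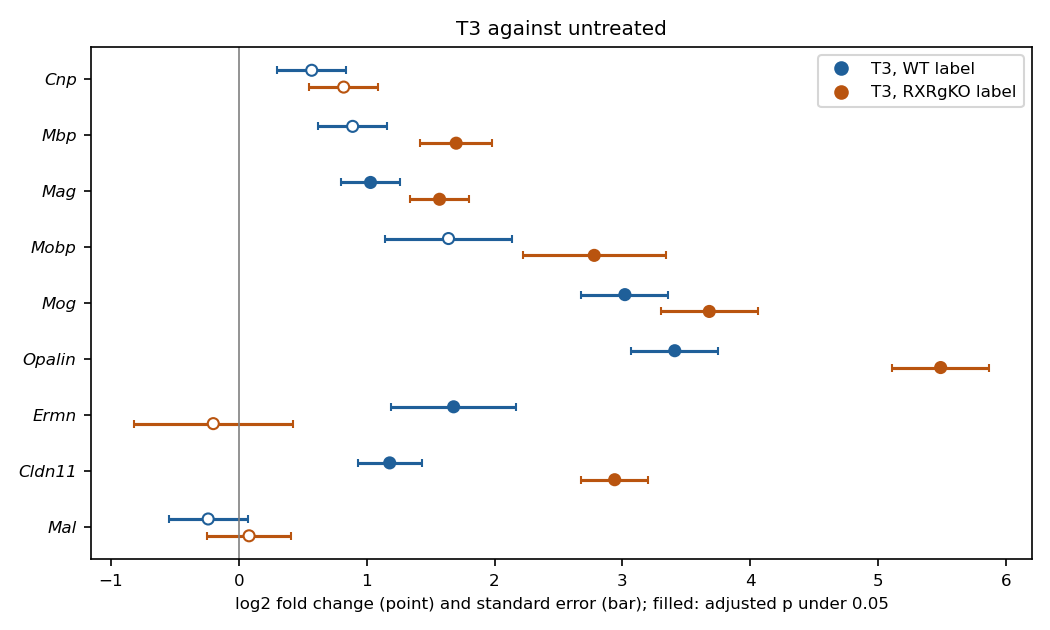
log2 fold change of T3 against untreated for each gene, under the WT label (blue) and the RXRgKO label (brown); bars are standard errors and filled points passed the test. Opalin and Mog lie farthest right under either label (3.41 and 3.02, 5.49 and 3.68), and Mal lies within 1 standard error of 0.

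Library sets were matched between treatments by Xist under the RXRgKO label and by standing alone or not under the WT label. Within the sets so matched, the order of T3 changes was similar at its top. Opalin and Mog had the 2 largest differences in mean log2 CPM in WT-labelled replicate 1 (3.21 and 2.49), in WT-labelled replicates 2 to 4 (3.56 and 3.40) and in the Xist-lacking RXRgKO-labelled set (5.08 and 3.29). In those with Xist, Opalin (5.60) was followed by Mobp (4.02) and Mog (3.97). The median over the 9 genes was 0.80 and 1.34 in the 2 WT-labelled sets, 0.79 in the set lacking Xist and 2.44 in the set with Xist. The share of reads outside annotated genes moved with treatment and set: it was 16.7% to 17.65% untreated and 12.46% to 14.73% with T3 under the WT label. Under the RXRgKO label it went from 21.6% and 23.54% to 16.8% and 18.66% in the libraries lacking Xist, and from 18.06% and 20.5% to 11.55% and 12.49% in those with Xist. Its part in the T3 changes was not tested.

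**Figure D4:**
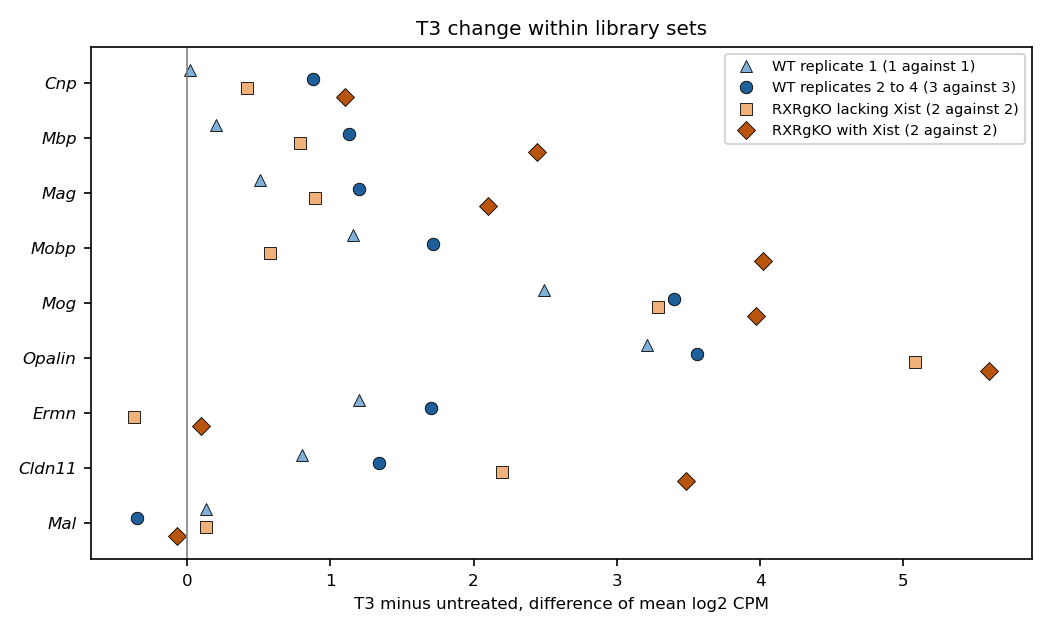
T3 minus untreated difference of mean log2 CPM for each gene within each of the 4 library sets (1 against 1, 3 against 3, 2 against 2 and 2 against 2 libraries). The largest spread between sets is that of Mobp, from 0.58 in the Xist-lacking set to 4.02 in the set with Xist, both RXRgKO-labelled.

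Whether T3 acted differently under the 2 labels was tested as the difference between the T3 changes. None of the 9 genes was called by edgeR, beside 0.0658% of all genes called in either direction, while 3 of 9 had an unadjusted p under 0.05, as did 5.15% of all genes. DESeq2 called 2 of the 9, and 0.45% of all genes. Cldn11 came closest, with a T3 change larger by 1.76 (SE 0.35, adjusted p = 0.0865) under the RXRgKO label, and DESeq2 gave 1.73 (adjusted p = 4.94e-04; range over alternatives 4.94e-04 to 0.248). Opalin had a difference of 2.08 (SE 0.49, adjusted p = 0.193; 4.53e-06 to 0.713), and DESeq2 called it too, at 2.05 (adjusted p = 0.00857). Ermn had the opposite sign, at -1.88 (SE 0.79, adjusted p = 0.848; 3.77e-05 to 1). Without both WT-labelled replicate 1 libraries Opalin (1.95, adjusted p = 0.0326) and Ermn (-1.92, adjusted p = 0.0136) passed, and without the libraries lacking Xist Cldn11 did (2.25, adjusted p = 0.0042). Over all genes, the first of these fits called 55 higher and 63 lower of 20573, and the second 13 and 13 of 19733. When library sets entered the model, Opalin (2.06), Cldn11 (1.64) and Ermn (-1.77) all passed, in a fit that called 6.68% of all genes. The differences of the other 6 ranged from 0.25 for Cnp to 1.14 for Mobp, and that of Mobp turned to -1.07 without the RXRgKO-labelled libraries with Xist.

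T3-treated RXRgKO-labelled libraries were also set against untreated WT-labelled ones, which share groups with the comparisons above. The 2 higher genes were Opalin, by 4.17 (SE 0.35, adjusted p = 9.7e-07), and Mog, by 1.54 (SE 0.33, adjusted p = 0.00353), while 6 members were lower, beside 9.52% and 8.17% of all genes. Mog stood at 11.9 to 13.2 CPM against 2.37 to 8.82 CPM, so treated RXRgKO-labelled libraries exceeded every untreated WT-labelled one. The 6 lower genes were Mobp (-4.23), Ermn (-3.87), Mbp (-3.05), Mal (-2.76), Mag (-2.16) and Cldn11 (-0.82), with standard errors of 0.23 to 0.58 and adjusted p from 2.7e-06 to 0.0268. Cldn11 lost its call in 6 of 25 alternatives (adjusted p from 7.95e-05 to 0.146), with -0.39 (adjusted p = 0.146) without the libraries lacking Xist, and with -0.64 without untreated WT-labelled replicate 1 or T3-treated RXRgKO-labelled replicate 2 and -0.67 without T3-treated RXRgKO-labelled replicate 1. Cnp, at -0.61 (SE 0.27, adjusted p = 0.132), was not called, but was at -1.13 (adjusted p = 0.0138; range over alternatives 0.0138 to 0.557) without the libraries with Xist. The late genes therefore lay at either end of this order, with Opalin and Mog at the top and Ermn and Mobp at the bottom.

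The order of the levels was read per kilobase of merged exons (CPM per kb), since counts grow with transcript length. In untreated WT-labelled libraries Mbp led (611 ± 114 CPM per kb, SD, n = 4), followed by Cnp (507 ± 239), Cldn11 (265 ± 62.6), Mag (192 ± 25.0) and Mobp (33.1 ± 6.96). Mal (9.94 ± 1.5), Ermn (4.43 ± 2.17), Mog (2.56 ± 1.76) and Opalin (0.707 ± 0.408) came last. The 3 early genes thus stood among the first 4 and the late genes Ermn, Mog and Opalin in the last 3 places. The ranges of Mbp and Cnp, of Cldn11 and Mag, and of Ermn and Mog overlapped, so these neighbours were not separated by their spread. With T3 the first 5 places kept this order, now with no overlapping ranges between neighbours, and Mbp reached 1133 ± 158 CPM per kb. Mog (20.9 ± 5.60) moved up to the sixth place, ahead of Ermn, Mal and Opalin, and the ranges of neighbours among these 4 overlapped.

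Cnp led instead under the RXRgKO label. Untreated, Cnp was at 188 ± 16.2 CPM per kb, 8.24 times the level of Mbp (22.8 ± 5.41), whose range overlapped that of Cldn11 (19.5 ± 2.10), followed by Mag (14.5 ± 2.08). Mal (1.39 ± 0.568), Mog (0.588 ± 0.213), Ermn (0.350 ± 0.126), Opalin (0.282 ± 0.0282) and Mobp (0.258 ± 0.113) came after a gap, and each of the 5 overlapped its neighbour in range. Mobp, at rank 5 under the WT label, was the lowest here by merged exon length. With T3 the order was Cnp (331 ± 112), Cldn11 (150 ± 64.2), Mbp (74.0 ± 32.6), Mag (43.0 ± 16.6), Opalin (12.8 ± 3.55), Mog (7.45 ± 0.356), Mobp (1.74 ± 1.43), Mal (1.49 ± 0.754) and Ermn (0.311 ± 0.104). Neighbouring ranges overlapped from Cldn11 to Mag and between Mobp and Mal. Opalin had moved from the eighth to the fifth place and was above Mog in 4 of 4 libraries. Places depend on the length used: with the median length of coding transcripts, Mobp was at rank 3 in the untreated WT-labelled group and rank 2 with T3, and Cldn11 at rank 5 in either. By that length Mobp was at rank 5 under the RXRgKO label too, untreated (3.55 ± 1.56 CPM per kb) and with T3. Cnp kept its lead over Mbp in all 8 RXRgKO-labelled libraries under either length.

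**Figure D5:**
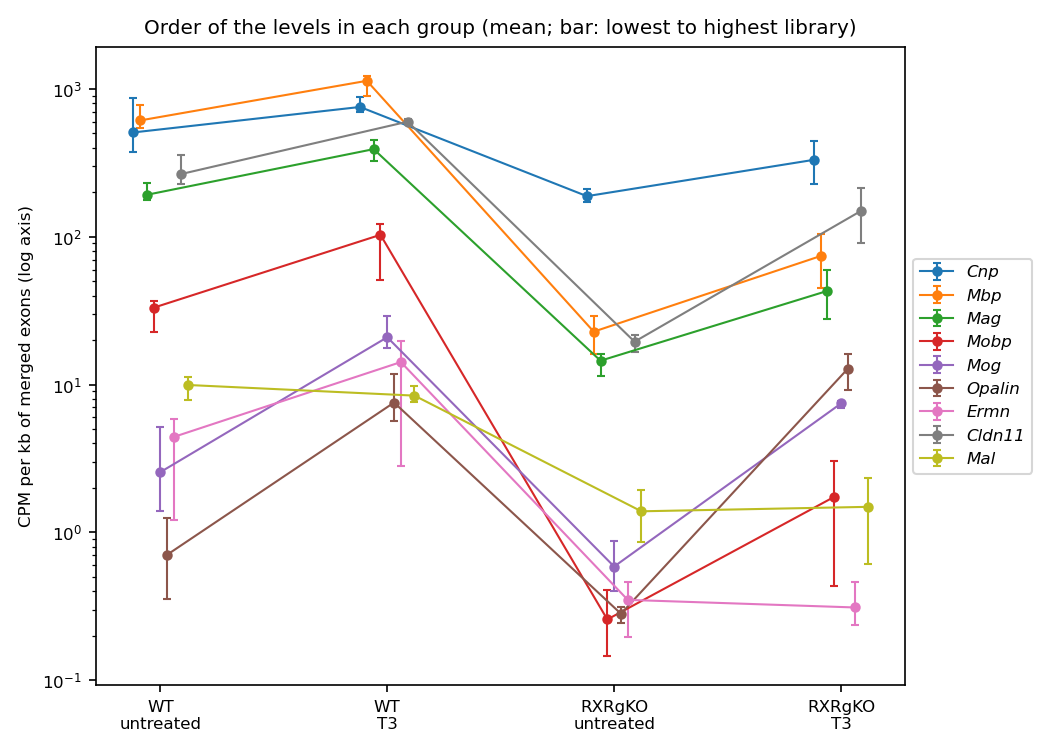
Level per kilobase of merged exons (CPM per kb, log axis) of each gene in the 4 groups; points are means of 4 libraries, bars span the lowest to the highest library, and lines only join the same gene. Mbp stands above Cnp under the WT label and below it under the RXRgKO label, where Mobp drops from 33.1 to 0.258 CPM per kb.

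Gene length cancels when the ratio of 2 genes is compared between libraries, and 2 pairs are given that were chosen after their values were seen. The ratio of Mbp to Cnp counts was 2.10 to 3.41 in untreated and 2.37 to 3.98 in T3-treated WT-labelled libraries. Under the RXRgKO label it was 0.200 to 0.373 and 0.432 to 0.568, so no library of this label reached the lowest WT-labelled one. The ratio of Opalin to Mobp was 0.0042 to 0.0238 and 0.0201 to 0.100 under the WT label, and 0.258 to 0.846 and 2.21 to 9.16 under the RXRgKO label. Together the 9 genes took 0.753% to 1.58% of gene counts in WT-labelled libraries and 0.0988% to 0.309% in RXRgKO-labelled ones. Mbp made up 55.2% to 62.9% of their summed CPM under the WT label and 15.1% to 28% under the RXRgKO label.

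Other genes of myelin and mature oligodendrocytes, a list of 40 of which 39 were tested, moved less uniformly. Untreated, 21 were lower and 3 higher under the RXRgKO label, with a median of -1.01. Of all genes, 5.16% were called lower and 6.17% higher. The link protein Hapln2 of nodal matrix went from 9.28 ± 1.20 to 0.445 ± 0.166 CPM (SD, n = 4; -4.40, SE 0.30). Mcam (-1.92, SE 0.14) and the lysophosphatidic acid receptor gene Lpar1 (-2.03, SE 0.15) were lower as well, and the adjusted p of these 3 ran from 1.3e-07 to 2.3e-07. The 3 that were higher, named after their values were seen, were Cd9 (0.98, SE 0.28), the small heat shock gene Cryab (1.52, SE 0.29) and the lipocalin gene Apod (2.15, SE 0.54). With T3 in both arms 25 were lower and 1, Cryab (1.04, SE 0.29), was higher, where 6.8% of all genes were called lower and 8.1% higher. There Hapln2 (-4.78, SE 0.28), Tmem125 (-6.52, SE 0.48) and the connexin gene Gjb1 (-3.26, SE 0.27) were among those with the smallest adjusted p, 2.8e-08 to 9.1e-07.

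T3 raised 19 of these genes under the WT label (median 0.79), beside 4.96% of all genes, and 7 under the RXRgKO label (median 0.57), beside 2.01% of all genes. Under the WT label the iron carrier transferrin, Trf (2.12, SE 0.28), the connexin gene Gjc3 (1.76, SE 0.26), Hapln2 (1.5, SE 0.24) and Prr5l (0.85, SE 0.12) had the smallest adjusted p, 1.5e-04 to 6.6e-04. In the RXRgKO-labelled groups these were Gjc3 (2.5, SE 0.27), Ugt8a (1.52, SE 0.18), which makes galactolipid, Mcam (1.03, SE 0.14) and Trf (1.93, SE 0.29), with adjusted p from 4.3e-05 to 0.00106. The difference between the T3 changes was called for 1 gene of the list, Prr5l (-1.13, SE 0.18, adjusted p = 0.0182), where 0.0557% of all genes were called in this direction. Prr5l went from 9.68 to 17.5 CPM under the WT label and from 8.01 to 6.61 CPM under the RXRgKO label. Hapln2 and Tmem125 were near the level of Ermn with T3 under the RXRgKO label, at means of 0.905 and 0.491 CPM.

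Of 16 transcriptional regulators of myelin genes, 2 were lower under the RXRgKO label without T3, beside 5.16% of all genes. Myrf, whose product drives the myelin programme in postmitotic oligodendrocytes, went from 324 ± 97.5 to 126 ± 41.0 CPM untreated (SD, n = 4; -1.36, SE 0.33, adjusted p = 0.0109) and from 533 ± 117 to 221 ± 110 CPM with T3 (-1.27, SE 0.33, adjusted p = 0.0143). Nkx6-2, a homeobox gene of maturing oligodendrocytes, was lower by label too (-1.24, SE 0.33, adjusted p = 0.0184) and rose with T3 under the WT label (1.82, SE 0.33, adjusted p = 0.00194) and the RXRgKO label (1.96, SE 0.33, adjusted p = 0.00274). Its libraries overlapped between labels, at 13 to 26.9 against 6.63 to 13.1 CPM untreated and 33.2 to 106 against 32.7 to 42.3 CPM with T3. Sox10, which marks the whole lineage, had values of -0.74 (SE 0.35, adjusted p = 0.223) untreated and -0.59 (SE 0.35, adjusted p = 0.308) with T3 between labels. Olig2, another lineage factor, had -0.04 (SE 0.29) and 0.03 (SE 0.29). With T3, Id2 (0.81, SE 0.18, adjusted p = 0.00497) and Id4 (0.73, SE 0.17, adjusted p = 0.0064), inhibitors of basic helix-loop-helix factors, were higher under the RXRgKO label. T3 lowered Sox5 (-0.54, SE 0.14), Hes5 (-0.78, SE 0.20) and Id4 (-0.69, SE 0.17) under the WT label and Sox5 (-0.56, SE 0.14) under the RXRgKO label, the 4 with adjusted p from 0.0159 to 0.0339. The largest gap among Myrf, Nkx6-2, Sox10 and Olig2, that of Myrf, was far smaller in fold than that of Mbp or Mobp. The Myrf gap was near that of Cnp (-1.43 untreated and -1.19 with T3) and that of Opalin untreated (-1.32). These comparisons of sizes were not tested.

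Markers of other cell types are given beside the gap, and their part in it was not tested. The 6 OPC markers had log2 differences between labels of -0.82 to 0.29 untreated and -0.56 to 0.25 with T3, and the 6 astrocyte markers of -0.42 to 0.37 and -0.77 to 0.40. Of 7 neuron markers 1 was higher under the RXRgKO label untreated (6.17% of all genes) and 3 with T3 (8.1%), and their summed level was 364 to 691 CPM against 639 to 899 CPM untreated and 349 to 460 against 580 to 860 CPM with T3. Of 5 microglia markers 4 were higher in either arm, at summed levels of 1.80 to 2.61 CPM under the WT label and 2.63 to 12.7 CPM under the RXRgKO label. Of 5 endothelial and mural markers 1, Cdh5, named after its values were seen, was higher in either arm (2.42, SE 0.48, and 3.04, SE 0.55), at group means of 0.0766 to 0.981 CPM. No marker list other than that of Schwann cells had a gene at 0 in every library of a group, and there it was Pmp2 with T3 under the RXRgKO label.

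The genes whose pattern came nearest to the mean of the 9 were found by the root mean square difference of centred log2 CPM over the 16 libraries, among 13596 other protein-coding genes. They were Ly6g6f (0.360), Sgk2 (0.377), Trf (0.394), Slc24a2 (0.423), Tex52 (0.442) and Prima1 (0.449), where the median gene had 1.79. Slc24a2, a sodium, calcium and potassium exchanger gene, went from 63.3 ± 5.99 to 117 ± 8.76 CPM with T3 under the WT label and from 6.75 ± 1.42 to 29.7 ± 14.0 CPM under the RXRgKO label (SD, n = 4). The kinase gene Sgk2 went from 4.51 ± 2.10 to 14.5 ± 1.64 CPM and from 0.567 ± 0.316 to 1.53 ± 0.491 CPM. Among the members, Mag (0.348) and Cldn11 (0.378) lay nearest to their common mean and Opalin (2.05) and Mobp (1.887) farthest. Mag and Cldn11 therefore follow the average of the 9 most closely, while Opalin, with its small gap and large T3 change, and Mobp, with its large gap, depart from it in opposite ways.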

How the data were processed

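Libraries were poly-A selected and dUTP-stranded, per the labels' protocols. The authors deposited raw read counts per Ensembl gene on mm10, with HTSeq 0.6.1p1, STAR 2.5.3a and bcl2fastq 2.17.1.14 named in the submitters' processing notes. Strand setting and annotation release were not given in the sources used here. Each file's 5 HTSeq summary lines, which name no gene, stayed out of library sizes and tests; reads at several sites made up 39.65% to 55.01%, reads outside genes 11.55% to 23.54% and ambiguous reads 0.995% to 1.9% of each library. GENCODE M21 (GRCm38) gave symbols, positions and exon lengths, and 55154 of 55335 identifiers were in it. Exons of Cnp overlap Dnajc7 by 154 bases and those of Ermn overlap Galnt5 by 237 bases on the opposite strand, and those of Mobp overlap Gm38642 by 79 bases on the same strand.

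All 16 libraries entered 1 fit with a mean per group in edgeR 4.0.16 under R 4.3.3 (quasi-likelihood test, robust, TMM, filterByExpr), with Benjamini-Hochberg adjustment over 19764 genes. Standard errors were taken as |log2 fold change| over sqrt(F). CPM were TMM-normalised, apart from those of Xist, and log2 CPM had a prior count of 2. DESeq2 1.42.0 was an alternative. The pipeline was also run on simulated counts, drawn independently for each library. Those counts held no library sets, so the run does not show how the tests behave with them. Library sets joined libraries of a group with a chi-square per gene under 3 over genes with 20 to under 500 summed counts. Between treatments, RXRgKO-labelled sets were matched by Xist level and WT-labelled sets by whether a library stood alone in its group. A shared culture was not shown by either match. No source used here names molecular identifiers, so reads need not be separate molecules.

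The members, lists, alternatives and rule for named genes (all members, Rxrg, listed regulators, the smallest adjusted p of the other myelin genes, the 6 nearest patterns and leading markers of other cell types) were chosen with earlier results of these data known. Some genes of the lists are counted but not named, and Mbp is given without position or sequence. Same-number correlations of residuals between treatments were 0.648, 0.247, 0.211 and 0.164 under the WT label, so numbers were taken as pairs there, although only numbers 1 and 3 matched best with themselves. Under the RXRgKO label they were 0.543, -0.629, -0.697 and 0.600, so no pairing was used there.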

Additional observations from a re-analysis of the deposited data

Results flagged for a closer look

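In each group of 4 libraries, a gene was singled out when the gap between its highest or lowest library and the next, divided by the range of the group, passed Dixon's 95% critical value for 4 samples. Chance alone flags about 1 in 20 such groups when the libraries vary alike, and 36 were examined. That rate does not apply here, since groups split 1 against 3 under the WT label and 2 against 2 under the RXRgKO label. All 12 cases came from the 2 WT-labelled libraries numbered 1, which stood alone. A 2 against 2 split is seldom flagged, as for Mobp with T3 under the RXRgKO label (2.98, 4.00, 20.1 and 20.7 CPM). The lack of cases under that label therefore does not show uniform libraries. Untreated replicate 1 was the highest library for Mbp (6608 CPM), Mog (8.82 CPM), Cnp (3149 CPM) and Cldn11 (670 CPM) and the lowest for Mobp (155 CPM) and Ermn (4.39 CPM). T3-treated replicate 1 was the highest for Mog (49.8 CPM), Cnp (3198 CPM) and Opalin (34.9 CPM) and the lowest for Mbp (7593 CPM), Mobp (348 CPM) and Ermn (10.2 CPM). Both libraries were thus high for some myelin genes and low for others, with Mobp and Ermn low and Mog and Cnp high in either.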

How the results depend on the processing

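Leaving out each library in turn gave 4 to 7 of the 9 genes called for T3 under the WT label, 5 to 7 for T3 under the RXRgKO label, 8 to 9 between labels untreated, 8 to 9 with T3, 0 to 1 for the response difference and 7 to 8 for T3-treated RXRgKO against untreated WT. The count for T3 under the WT label was 8 when library sets entered the model and 8 in a fit of WT-labelled libraries only with a replicate block. For T3 under the RXRgKO label it was 3 without the 4 libraries with Xist. For the response difference it was 1 without the low-count filter, 2 with DESeq2, 3 when library sets entered the model, 2 without both WT-labelled replicate 1 libraries, 1 without the 4 libraries lacking Xist, and 1 without T3-treated WT-labelled replicate 1 or T3-treated RXRgKO-labelled replicate 2. The cause was not tested. With the replicate block in all 16 libraries, Mobp passed for T3 under the WT label (1.59, adjusted p = 0.0353), Opalin no longer passed between labels untreated (-1.25, adjusted p = 0.0502), and no other call of a member changed.

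The signs that turned were all of values not called. For T3 under the RXRgKO label, Mal ran from -0.24 to 0.35 over single omissions, with -0.06, -0.09 and -0.02 among them, and was -0.01 without the libraries lacking Xist, where Ermn was 0.09. For the response difference, Cnp ran from -0.16 to 0.39 over single omissions and was -0.06 without both WT-labelled replicate 1 libraries and -0.17 without the libraries with Xist, where Mobp was -1.07, Mag -0.14 and Mbp -0.12, and Mal ran from -2.8e-05 to 0.59 over single omissions. The set-based settings were chosen after seeing the data. Over all genes, T3 under the WT label gave 980 higher and 688 lower calls, against 4039 and 3560 when library sets entered the model, 2777 and 2307 in the WT-only fit with a replicate block, 801 and 332 without the low-count filter, and 609 to 1470 and 366 to 1005 over single omissions. For T3 under the RXRgKO label these were 398 and 157, against 3967 and 2667 with library sets, 728 and 269 in DESeq2, 324 and 57 without the filter, 115 and 14 without the libraries with Xist, 986 and 554 without both WT-labelled replicate 1 libraries, and 214 to 521 and 39 to 258 over single omissions, the lowest without untreated RXRgKO-labelled replicate 4. For the response difference they were 2 and 11, against 737 and 584 with library sets, 23 and 62 in DESeq2, 3 and 11 without the filter, and 2 to 18 and 1 to 36 over single omissions. Between labels untreated, 1220 genes were called higher and 1020 lower, with 929 to 1340 and 746 to 1138 over single omissions. Between labels with T3 they were 1600 and 1343, with 1160 to 1791 and 988 to 1546. For T3-treated RXRgKO against untreated WT they were 1882 and 1614, with 1341 to 2178 and 1139 to 1866. Mobp, Mog, Opalin and Ermn rested on 17 to 66 reads per untreated RXRgKO-labelled library, which limits their precision.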
